A study of Mus musculus with 2 samples.

Results

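The 9 genes described here belong to the Notch pathway: the receptors Notch1, Notch2 and Notch4, the ligands Dll1, Dll4, Jag1 and Jag2, and the target genes Hes1 and Hey1. They were chosen by name, and all 9 were found among the 17790 genes of the deposited count table. The cells came from lung adenocarcinomas of C57BL/6 mice that were dissected and dissociated, then sorted on magnetic CD45 beads (CD45 is a phosphatase on the surface of leukocytes). Each fraction was 1 droplet library of 3′ transcript ends, so there was no replicate of either. The CD45-negative library held 3957 cells and 40873786 unique molecular identifiers (UMI, 1 for each captured transcript), at a median depth of 7710 per cell, and the CD45-positive library held 11432 cells and 47477407 UMI, at a median depth of 3376. Both share strain and tissue. The labels read here leave out the tumour model, the age and number of the mice and any treatment, and do not explain the name LucOS that the cell names carry.

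Notch receptors are cut when a ligand on a neighbouring cell binds them, and the freed inner part enters the nucleus, where it joins the DNA-binding protein RBPJ and switches on genes such as Hes1 and Hey1, which code for repressors of transcription. In blood vessels Dll4 and Notch1 act in arteries and in sprouting capillaries, Notch4 is a receptor made mostly by endothelium, and Notch3 is the receptor of pericytes and smooth muscle. In the airways the pathway takes part in the choice between secretory and ciliated cells, and in leukocytes Notch1 is best known from T cells and Notch2 from B cells and myeloid cells.

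Levels are given as CPM, the UMI of a gene per 1000000 UMI summed over the cells named, with 95% exact Poisson intervals in brackets after a level. Ratios carry 95% exact conditional-binomial intervals. With 1 library per fraction no test of a difference was possible, and intervals and floors cover counting error only. A gene counted as higher when its ratio was at least 2, among genes with at least 200 UMI over the cells compared. Levels of different genes were not compared, since 3′ counts depend on each transcript's end.

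The 7 deposited classes were checked against marker genes before use. The Endothelial class had all 7 endothelial markers at 2-fold or more over the other cells, but also 6 of 8 fibroblast markers in the CD45-negative library, and sub-clustering found pericyte-like and fibroblast-like cells in it. The Fibroblast class had all 6 mesothelial markers and 3 of 8 fibroblast markers there. The class labelled AT1 had 0 of 7 markers of type 1 alveolar cells at 2-fold or more in the CD45-negative library and 2 of 7 in the CD45-positive one. In the CD45-negative library it had Ager at 302 CPM against 1614 CPM in the AT2 class, and was rich in the keratin gene Krt18 (3862 CPM) and the claudin gene Cldn4 (658 CPM). It is called the class labelled AT1 below. The Ciliated class had all 6 ciliated markers and also held club-like cells, leukocyte-led cells and cells rich in AT2 markers. Of its 116 CD45-positive cells 23 lay in the ciliated sub-cluster, 50 in the leukocyte-led one and 22 in the one with 7 of 7 AT2 markers. Among its 108 CD45-negative cells 54 lay in the ciliated sub-cluster, and the 19 with AT2 markers held about as many UMI (498967 against 498123). Levels of the Ciliated class, or of Ciliated cells, are those of this mix. A UMI of at least 1 of 8 leukocyte genes was carried by 408 of 1249 Endothelial barcodes (32.7%) of the CD45-negative library, against 1977 of 2172 (91%) of the CD45-positive one. The members' levels in the Endothelial class are also given without these barcodes, and 57 cell barcodes occurred in both libraries.

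In the mouse genome (build GRCm38, which mm10 names as well) the receptors lie at chr2:26457903-26516663 (Notch1, minus strand), chr3:98013527-98150361 (Notch2, plus strand) and chr17:34564268-34588503 (Notch4, plus strand). The ligands lie at chr17:15367354-15376872 (Dll1, minus strand), chr2:119325784-119335962 (Dll4, plus strand), chr2:137081456-137116644 (Jag1, minus strand) and chr12:112907819-112929776 (Jag2, minus strand). The targets lie at chr16:30064384-30067796 (Hes1, plus strand) and chr3:8663359-8667256 (Hey1, minus strand). All are protein-coding, and same-strand annotations overlap Notch1 (Mir6996), Notch2 (Gm42819, Gm42820) and Jag2 (Mir6941), whose reads could be shared in counting. Start-site windows were found in RefSeq (GRCm38.p6) for 7 of the 9 genes, each with 250 bases before and 50 after the start. The windows of Notch4 and Dll4, a receptor and a ligand that both stood out in the endothelium, and of Jag1, a ligand that stood out in epithelium, are printed 5′ to 3′ on the strand of the gene. Capitals mark GGAA or its reverse complement TTCC, the core of motifs bound by ETS factors, a family with many members in endothelium.
Notch4, chr17:34564045-34564344, plus strand: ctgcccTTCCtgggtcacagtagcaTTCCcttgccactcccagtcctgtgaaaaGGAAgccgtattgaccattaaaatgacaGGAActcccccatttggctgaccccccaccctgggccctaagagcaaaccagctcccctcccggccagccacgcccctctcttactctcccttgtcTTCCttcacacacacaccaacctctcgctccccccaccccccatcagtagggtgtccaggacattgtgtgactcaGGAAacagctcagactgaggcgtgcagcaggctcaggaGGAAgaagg
Dll4, chr2:119325534-119325833, plus strand: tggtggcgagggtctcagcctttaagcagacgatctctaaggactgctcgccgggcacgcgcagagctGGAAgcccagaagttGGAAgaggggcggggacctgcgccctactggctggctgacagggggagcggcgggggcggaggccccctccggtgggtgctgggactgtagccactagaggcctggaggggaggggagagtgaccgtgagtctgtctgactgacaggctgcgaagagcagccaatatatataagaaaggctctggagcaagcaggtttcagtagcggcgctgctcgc
Jag1, chr2:137116471-137116770, minus strand: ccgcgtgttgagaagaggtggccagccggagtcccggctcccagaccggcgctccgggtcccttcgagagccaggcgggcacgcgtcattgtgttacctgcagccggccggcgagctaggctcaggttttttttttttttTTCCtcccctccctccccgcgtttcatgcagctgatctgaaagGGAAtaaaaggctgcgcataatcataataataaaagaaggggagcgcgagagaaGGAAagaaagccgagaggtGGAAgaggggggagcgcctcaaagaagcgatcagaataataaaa
Counting both strands, the core occurred 7 times in the Notch4 window, 2 times in that of Dll4 and 4 times in that of Jag1. It occurred 4 times for Notch1, 3 times for Notch2, 1 time in each of the 2 windows of Dll1 and 0 times for Jag2. The core is common: 96% of 32851 promoter windows of the same length held it, with a median of 3. The RBPJ motif TGGGAA (reverse complement TTCCCA), which contains GGAA, was in none of the 8 windows of Notch1, Notch2, Notch4, Dll1, Dll4, Jag1 and Jag2 and in 25.6% of all windows. CpG dinucleotides numbered 5 in the Notch4 window, 17 in the Dll4 window and 63 in the Jag2 window, against a median of 7 over all windows. These letters describe the windows and say nothing of what binds there.

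The receptors differed in where they were found. Notch1 was highest in the Endothelial class, Notch4 was found almost entirely there, and Notch2 was highest in the class labelled AT1 and the Fibroblast class of the CD45-negative library.
Notch1 reached 183 CPM (175-192) in the Endothelial class of the CD45-negative library, 8.89-fold (8.12-9.74) the 20.6 CPM of the other cells. The Ciliated class came next at 40.9 CPM (31-53), and the ratio of Endothelial to Ciliated was 4.47 (3.44-5.93). AT2 cells had 23.3 CPM and Immune cells 22.4 CPM, with neighbours from there down to the class labelled AT1 (11 CPM) not separated by their intervals. The order began in the same way among CD45-positive cells, with 143 CPM (135-151) in the Endothelial and 50.8 CPM (36.9-68.2) in the Ciliated class. A Notch1 UMI was seen in 842 of 1249 Endothelial cells of the CD45-negative library (67.4%), against 16.5% of cells in the class labelled AT1, which had the lowest level at the higher median depth of 14541 UMI per cell against 6808. With each cell thinned to 1000 UMI these shares became 16.1% and 1.08%.

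Notch2 ran the other way. It had 63.4 CPM (56.9-70.5) in the class labelled AT1 and 54.6 CPM (47-63) in the Fibroblast class of the CD45-negative library, which were not separated (ratio 1.16, 0.969-1.4). The Ciliated class had 35.9 CPM, AT2 cells 25.9 CPM, Immune cells 21.4 CPM and the Endothelial class 17.4 CPM (14.9-20.3). The Endothelial class was thus at 0.5 times (0.423-0.588) the level of the other cells. The classes of the CD45-positive library lay closer together, between 20.9 CPM in Erythrocyte and 58.5 CPM in Fibroblast cells, with the Ciliated class at 48.5 CPM, the class labelled AT1 at 42.7 CPM and AT2 cells at 41.2 CPM, and neighbours were separated at 1 place, between Immune (40.1 CPM) and Endothelial cells (35.3 CPM; ratio 1.14, 1-1.29). A Notch2 UMI was found in 51.9% of cells in the class labelled AT1 of the CD45-negative library and in 11.2% of Endothelial cells, and in 8.54% and 1.82% after thinning.

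Notch4 had 102 CPM (95.9-109) in the Endothelial class of the CD45-negative library, 15.6-fold (13.4-18.2) the 6.55 CPM of the other cells, and that class held 83.2% of its UMI. Among CD45-positive cells it had 79.1 CPM (73.4-85.1), 24.9-fold (20.5-30.4) the other cells, with 85.4% of its UMI in the class. The 6 other classes lay between 3.92 and 14.4 CPM in the CD45-negative library, and none of the neighbours among them were separated. AT2 cells, which are not known to make Notch4, served as background: 49.6% of Endothelial cells had a UMI at a median of 6808 UMI, against 6.02% of AT2 cells at a median of 8143 UMI, or 9.38% and 0.683% after thinning. Within AT2 cells the share was 3.67% in the Cd177-led sub-cluster 1 and 24.2% in sub-cluster 5, whose barcodes also held other endothelial transcripts.

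**Figure D1:**
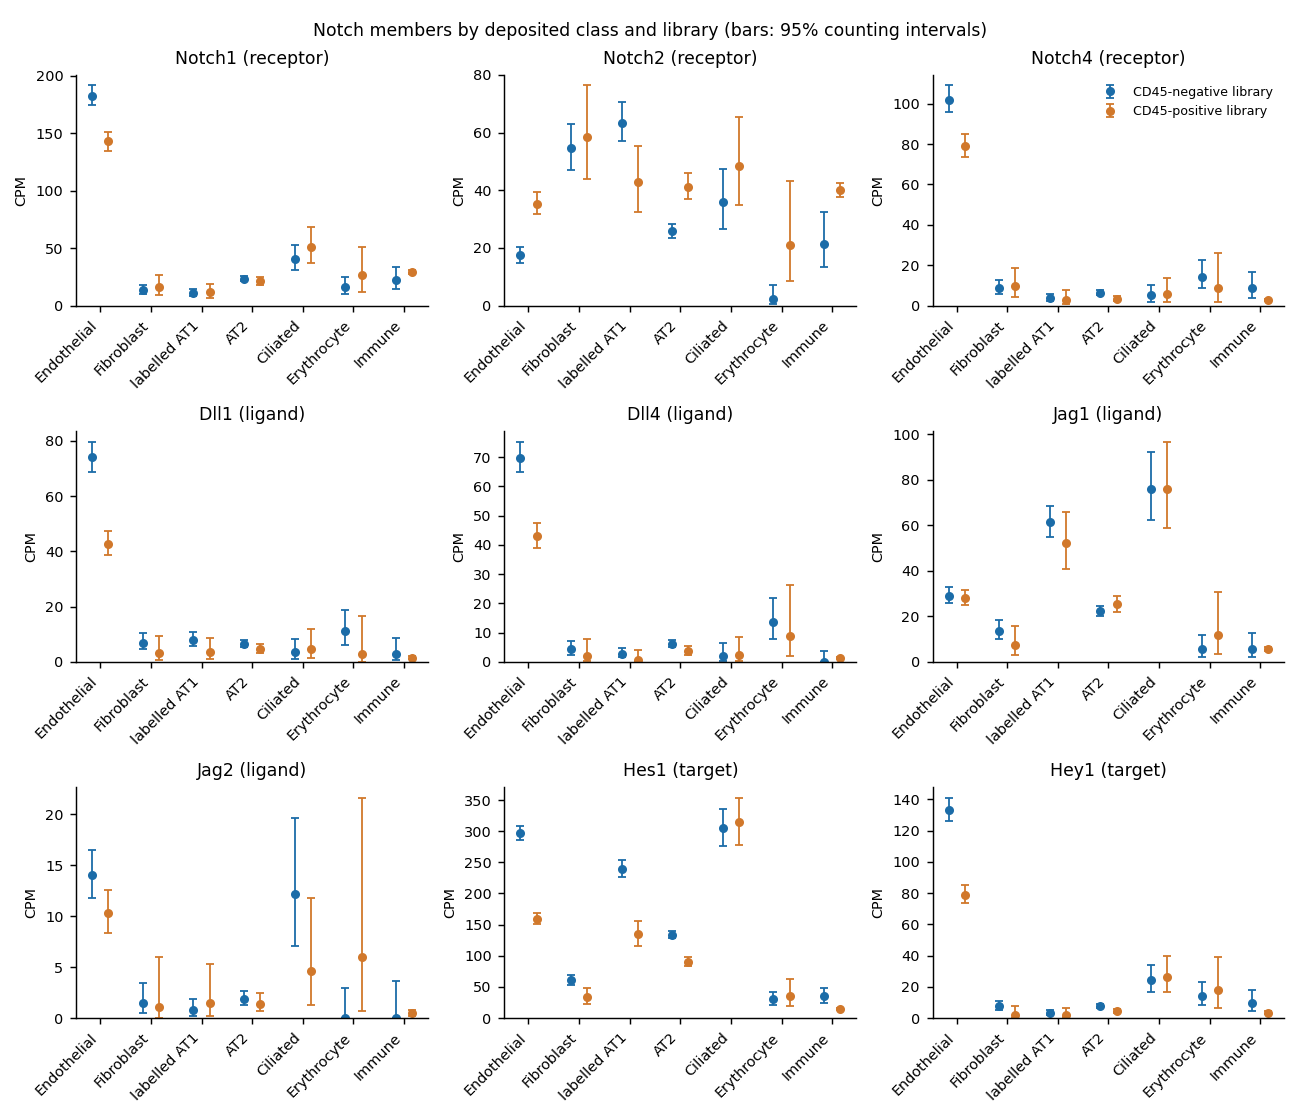
CPM of the 9 members (y axis, linear, a scale per panel) in the 7 deposited classes (x axis) for the CD45-negative (blue) and CD45-positive library (orange); bars are 95% exact Poisson intervals. Notch1, Notch4, Dll1, Dll4 and Hey1 peak in the Endothelial class of both libraries, Jag1 peaks in the Ciliated class and the class labelled AT1, and Hes1 is high in Ciliated and Endothelial cells.

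The Delta-like ligands were found where Notch4 was, and Jag1 was not. Dll1 had 74.1 CPM (68.9-79.7) in the Endothelial class of the CD45-negative library, 11-fold (9.38-12.8) the other cells, and 42.7 CPM (38.6-47.2) in the CD45-positive library, 18.3-fold (14.5-23.2) the other cells. Dll4 had 69.9 CPM (64.8-75.3), 13.1-fold (11.1-15.7) the other cells, in the CD45-negative library and 43 CPM (38.8-47.5), 23.9-fold (18.5-31.4), in the CD45-positive one. The Endothelial class held 80.7% of all Dll4 UMI of the CD45-negative and 84.9% of those of the CD45-positive library. Next in the order for both ligands stood the Erythrocyte class of the CD45-negative library, with 11.2 CPM of Dll1 and 13.6 CPM of Dll4, from 14 and 17 UMI. Its Dll1 was not separated from that of the class labelled AT1 (ratio 1.4, 0.707-2.61). The endothelial gene Cdh5 was at 119 CPM in it, the highest outside the Endothelial class of that library, and the part of endothelial transcripts in these levels was not tested. No Dll4 UMI was found in the 108 Immune cells of the CD45-negative library, which allows a share of up to 2.78% of such cells with a UMI. Dll4 was seen in 36.5% of Endothelial and 5.66% of AT2 cells there, or 6.68% and 0.669% after thinning.

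Jag1, a ligand of the Jagged branch, was highest in the Ciliated class, with 76.1 CPM (62.3-92.1) in the CD45-negative library and 76.2 CPM (58.9-96.9) in the CD45-positive one. The class labelled AT1 followed at 61.4 CPM (54.9-68.4) and 52.3 CPM (40.9-66). The pair was not separated in the CD45-negative library (ratio 1.24, 0.987-1.55) and was in the CD45-positive one (1.46, 1.03-2.07). In the Endothelial class of the CD45-negative library Jag1 had 29.1 CPM against 29.3 CPM in the other cells, a ratio of 0.994 (0.868-1.14). The ratio was 2.19 (1.88-2.56) in the CD45-positive library, where most other cells were leukocytes, at 5.7 CPM in the Immune class. A Jag1 UMI was found in 51.9% of Ciliated cells, against 3.45% of Erythrocyte cells, the lowest class, at median depths of 9269.5 and 6570.5 UMI, or 8.72% and 0.427% after thinning.

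Jag2 was sparse, with 199 UMI in the CD45-negative library, under the minimum of 200. It had 14 CPM (11.8-16.5) in Endothelial and 12.2 CPM (7.11-19.6) in Ciliated cells there, which were not separated (ratio 1.15, 0.69-2.02). Ciliated cells stood above AT2 cells, at 1.89 CPM, by 6.48-fold (3.4-11.9). Its levels in the CD45-positive library were 10.3 CPM in Endothelial and 4.62 CPM in Ciliated cells, the second from 4 UMI.

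The target gene Hey1 was mostly endothelial, and Hes1 was not. Hey1 had 133 CPM (126-141) in the Endothelial class of the CD45-negative library, 16.7-fold (14.5-19.2) the other cells, and 79.1 CPM (73.4-85.1), 18.9-fold (15.9-22.5), in the CD45-positive one. The Ciliated class came next at 24.4 CPM (16.9-34.1) and 26.5 CPM (16.8-39.8), and the ratio of Endothelial to Ciliated was 5.45 (3.88-7.91) and 2.98 (1.97-4.73). Hey1 was seen in 54.4% of Endothelial and 6.68% of AT2 cells of the CD45-negative library, or 12.2% and 0.929% after thinning.
Hes1 was spread over endothelium and epithelium. Its levels in the CD45-negative library were 305 CPM (277-336) in Ciliated, 297 CPM (286-308) in Endothelial, 240 CPM (227-253) in the class labelled AT1 and 134 CPM (129-139) in AT2 cells, and lower in Fibroblast (60.4 CPM), Immune (35 CPM) and Erythrocyte cells (30.5 CPM). Ciliated and Endothelial cells were not separated there (ratio 1.03, 0.927-1.14), whereas in the CD45-positive library Ciliated cells had 314 CPM (278-354) against 159 CPM (151-168) in Endothelial cells (ratio 1.97, 1.72-2.24). A Hes1 UMI was seen in 76.9% of Ciliated cells and in 10.3% of Erythrocyte cells, the lowest class, or 23.5% and 2.37% after thinning.

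Over the members, 6 of the 8 with at least 200 UMI (Notch1, Notch4, Dll1, Dll4, Hes1, Hey1) were at least 2-fold higher in the Endothelial class than in the other cells of the CD45-negative library, and 24.7% of all genes tested were. Their median log2 ratio was 3.30, against 0.45 for all genes. For the CD45-positive library 7 of 8 were higher (Jag1 in addition), against 16.7% of all genes, with a median of 3.29 against 0.29. Of the barcodes without a leukocyte UMI 195 Endothelial cells remained in that library, 3 members then reached 200 UMI, and Notch1 and Hes1 were higher, against 23.2% of all genes. Without these barcodes the CD45-positive Endothelial levels were 177 CPM of Notch1, 16.3 of Notch2, 103 of Notch4, 65 of Dll1, 54.7 of Dll4, 34 of Jag1, 17.7 of Jag2, 225 of Hes1 and 120 of Hey1, and the CD45-negative ones were 180, 18.8, 99.9, 75.3, 69.1, 26.5, 15.6, 303 and 136 CPM in the same order. The ratios to the other cells left in the CD45-positive library were then 6.08 (4.98-7.38) for Notch1, 0.406 (0.202-0.73) for Notch2, 37.6 (26.8-52.6) for Notch4, 38.7 (25.1-59.6) for Dll1, 42.5 (26.1-69.2) for Dll4, 5.56 (3.43-8.62) for Jag1, 33.1 (14.1-75.7) for Jag2, 13.4 (11.1-16.1) for Hes1 and 32.2 (23.8-43.5) for Hey1. Immune cells were kept whatever their leukocyte UMI, and made up 7438 of these 7557 other cells, so these are in effect ratios to leukocytes. With the same kind of barcode left out of the CD45-negative library the Jag1 ratio was 1.02 (0.848-1.23). In the class labelled AT1 2 of 8 members (Notch2, 2.46-fold, 2.17-2.79, and Jag1, 2.52-fold, 2.21-2.86) were higher in the CD45-negative library, against 7.53% of all genes, and 5 were at least 2-fold lower, against 20.9% of all genes, from Hey1 at 0.0773 times (0.0457-0.123) to Dll1 at 0.317 times (0.228-0.431). These 5 (Notch1, Notch4, Dll1, Dll4, Hey1) were lower in the AT2 class as well, against 23.6% of all genes. They were also among the 7 lower in the Fibroblast (16.1%) and Immune class (32.4%) of that library, so this is not particular to the class labelled AT1. Dll1 was at 8.02 CPM in that class, against 6.52 in AT2, 7 in Fibroblast and 2.92 CPM in Immune cells. Hes1 in the class labelled AT1 was at 240 against 172 CPM (1.39, 1.31-1.48). The same class of the CD45-positive library had Jag1 at 3.57 times (2.76-4.56), Hes1 at 2.2 times (1.88-2.55) and Notch2 at 1.08 times (0.813-1.4) the other cells. In the Ciliated class of the CD45-negative library 1 of 8 was higher (Jag1, 2.76-fold, 2.24-3.37), against 9.35% of all genes. Set against the cells outside the Endothelial class alone, an alternative chosen after seeing the data, Notch1, Hes1 and Hey1 joined Jag1 in the Ciliated class, which makes 4, against 10.3% of all genes. Ciliated cells of the CD45-positive library, where leukocytes made up most of the other cells, had Jag1 at 5.21 times (3.99-6.72) and Hes1 at 5.34 times (4.7-6.05) their level.
Median-of-ratios scaling sets the median gene to a ratio of 1, and so took up shifts of 0.45 and 0.29 (log2) for the Endothelial class of the CD45-negative and CD45-positive library, -0.35 for the Ciliated class and -0.15 for the class labelled AT1. The share of higher genes among all calls was then 42.4%, against 63.5% by total UMI, for the Endothelial class of the CD45-negative library, 46.2% against 60.9% for that of the CD45-positive library and 42.4% against 26.3% for the Ciliated class. Under this scaling Hes1 was below 2-fold in the Endothelial class of the CD45-negative library, Jag1 in that of the CD45-positive one, and Hes1 passed it in Ciliated cells.

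The Endothelial class was split into sub-clusters with the 9 members and the other Notch genes left out of the clustering. In the CD45-negative library an arterial-like sub-cluster of 28 cells (6 of 8 arterial markers, with 4 of 7 venous ones), a venous-like one of 89 cells (7 of 7 venous markers), a Car4 capillary-like one of 284 cells, a cycling one of 25 cells and sub-cluster 5 of 455 cells were reported. Sub-cluster 5 is left unnamed, since haemoglobin genes and the interferon-induced genes Gbp3, Iigp1, Gbp2 and Irgm1 were among its 10 leading genes. Dll4, Hey1, Notch1 and Dll1 differed between arterial-like and venous-like cells beyond their counting intervals. Dll4 had 217 CPM (158-291) in arterial-like cells, against 10.1 CPM (4.05-20.7) in venous-like cells, where 7 UMI were counted (ratio 21.6, 9.65-56.7). Hey1 had 280 CPM (213-362) in arterial-like and 34.5 CPM (22.1-51.4) in venous-like cells (ratio 8.11, 4.96-13.6).
Notch1 followed the same order, with 386 CPM (306-481) in arterial-like and 132 CPM (107-162) in venous-like cells (ratio 2.92, 2.13-3.98). Dll1 was the other way round, at 86.9 CPM (51.5-137) in arterial-like and 163 CPM (134-195) in venous-like cells (ratio 0.534, 0.306-0.883). Notch4 (ratio 1.29, 0.754-2.15) and Hes1 (0.953, 0.682-1.31) were not separated. No Notch2 UMI was found in the 28 arterial-like cells, which allows up to 17.8 CPM by the upper Poisson bound.
A Dll4 UMI was seen in 82.1% of arterial-like and 7.87% of venous-like cells, at median depths of 6186 and 7065 UMI, or 21.9% and 0.893% after thinning. The CD45-positive library held 14 arterial-like cells, too few to report. Its 41 venous-like cells had 121 CPM of Dll1, 20.1 CPM of Hey1 and no Dll4 UMI, against 66.9, 134 and 75.8 CPM in its 45 cells of sub-cluster 5.

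The Car4 capillary-like cells were set beside the larger sub-cluster 5, which had 1830 CPM of Gpihbp1, the gene of the capillary anchor of lipoprotein lipase. In the CD45-negative library the Car4 capillary-like cells had 0.578 times the Hey1 (104 against 179 CPM, 0.493-0.676), 0.65 times the Notch4 (79.1 against 122 CPM, 0.539-0.78) and 0.651 times the Dll1 (53.1 against 81.6 CPM, 0.517-0.814). Dll4 was at 70.4 against 89.4 CPM (0.788, 0.642-0.962), and Hes1 was not separated, at 305 against 278 CPM (1.1, 0.99-1.21). Sub-cluster 3, also unnamed and with Gpihbp1 among its leading genes, held 7 CD45-negative and 308 CD45-positive cells, and the CD45-positive ones had 190 CPM of Notch1, 126 CPM of Notch4, 62.1 CPM of Dll4 and 132 CPM of Hey1.

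Notch2 and, outside the 9 members, Notch3 were set out for the pericyte-like and fibroblast-like cells of the class. The pericyte-like sub-cluster had 6 of 6 pericyte markers in the table and also 6 of 6 smooth muscle markers, so its name does not tell these cell types apart. In the CD45-negative library its 209 cells had 38.7 CPM of Notch2 (30.1-48.9), 5.1-fold (3.21-8.35) the 7.57 CPM of sub-cluster 5, and Notch3 at 169 CPM against 5.83 CPM (28.9-fold, 18.4-48.1). The fibroblast-like sub-cluster (113 cells) had 41.1 CPM of Notch2 (5.43-fold, 3.27-9.18). Among CD45-positive cells the pericyte-like sub-cluster again had 38.8 CPM (27-54), but the fibroblast-like one had 16.2 CPM (6.52-33.4) from 7 UMI, near the 13.8 CPM (6.91-24.8) of Car4 capillary-like and the 20.1 CPM (5.49-51.5) of venous-like cells. The library ratio of Notch2 was 0.996 (0.654-1.54) in pericyte-like and 2.54 (1.13-6.67) in fibroblast-like cells. Notch1 (197 and 176 CPM) and Dll4 (54.9 and 51.4 CPM) were also counted in these 2 sub-clusters. The endothelial cadherin gene Cdh5 stood at 1071 and 937 CPM in them, against 1232 CPM in sub-cluster 5, so their barcodes held endothelial transcripts, and the part of these in the Notch1 and Dll4 levels was not tested.

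**Figure D2:**
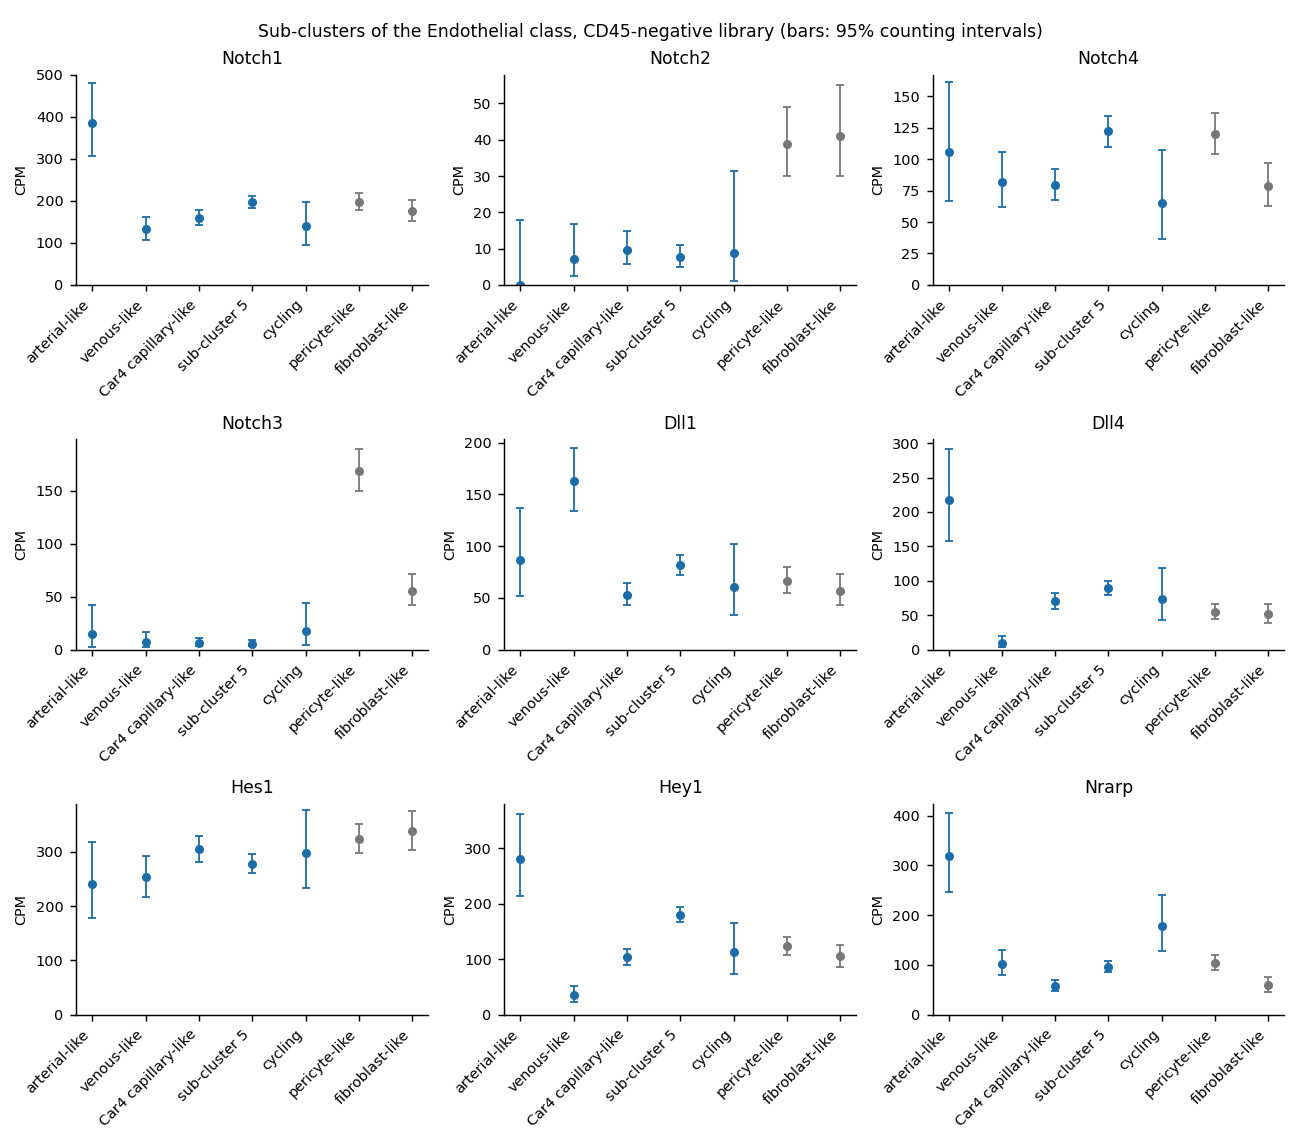
CPM (y axis, linear, a scale per panel) of 7 members, the receptor gene Notch3 and the target gene Nrarp in 7 sub-clusters of the Endothelial class (x axis), CD45-negative library; grey points are pericyte-like and fibroblast-like, blue points the other sub-clusters, and bars are 95% exact Poisson intervals. Dll4, Hey1, Notch1 and Nrarp are highest in the 28 arterial-like cells, Dll1 in the 89 venous-like cells, and Notch2 and Notch3 in the grey sub-clusters.

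In the AT2 class, which holds the surfactant-making cells and the cells that share their genes, Hes1, Notch2 and Jag1 differed between sub-clusters. Sub-cluster 6 (313 cells in the CD45-negative library) had 7 of 7 AT1 markers and 6 of 6 markers of the transitional list above the rest of the class, among them Cldn4, which also marks the class labelled AT1. Hes1 was at 259 CPM in it, against 90.7 CPM in sub-cluster 1, led by Cd177 (ratio 2.85, 2.58-3.15). Notch2 was at 50.5 against 23.1 CPM (2.19, 1.77-2.7), and Jag1 at 33.9 against 24.6 CPM (1.38, 1.1-1.73).
The same pair in the CD45-positive library had 193 against 66.1 CPM of Hes1 (2.92, 2.34-3.67), 30.3 against 16.5 CPM of Jag1 (1.84, 1.12-3.05) and 37.6 against 25.4 CPM of Notch2 (1.48, 0.979-2.25, not separated). Hes1, Notch2 and Jag1 thus stood higher in sub-cluster 6 in each library, with the interval for Notch2 reaching below 1 in the CD45-positive one. Median depth was 10237 UMI in sub-cluster 6 and 9554 UMI in sub-cluster 1 of the CD45-negative library. Genes induced by dissociation stress summed to 2229 and 969 CPM, and their part in the Hes1 difference was not tested.
Sub-cluster 2 (320 cells) had 1.99 CPM of Notch2 and 1.59 CPM of Jag1, 0.0861 times (0.0276-0.205) and 0.0646 times (0.0174-0.169) sub-cluster 1, while Hes1 was at 75.5 CPM (0.832 times, 0.703-0.981). Its mitochondrial share of UMI was 0.142%, against 3.3% in sub-cluster 1, and its part in these ratios was not tested. Sub-cluster 5 (182 cells) had all 7 endothelial markers above the rest of the class and Cdh5 at 385 CPM, with 52.1 CPM of Hey1, 36.6 CPM of Dll4 and 33.2 CPM of Notch4, against 1.5, 4.65 and 3 CPM in sub-cluster 1.

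**Figure D3:**
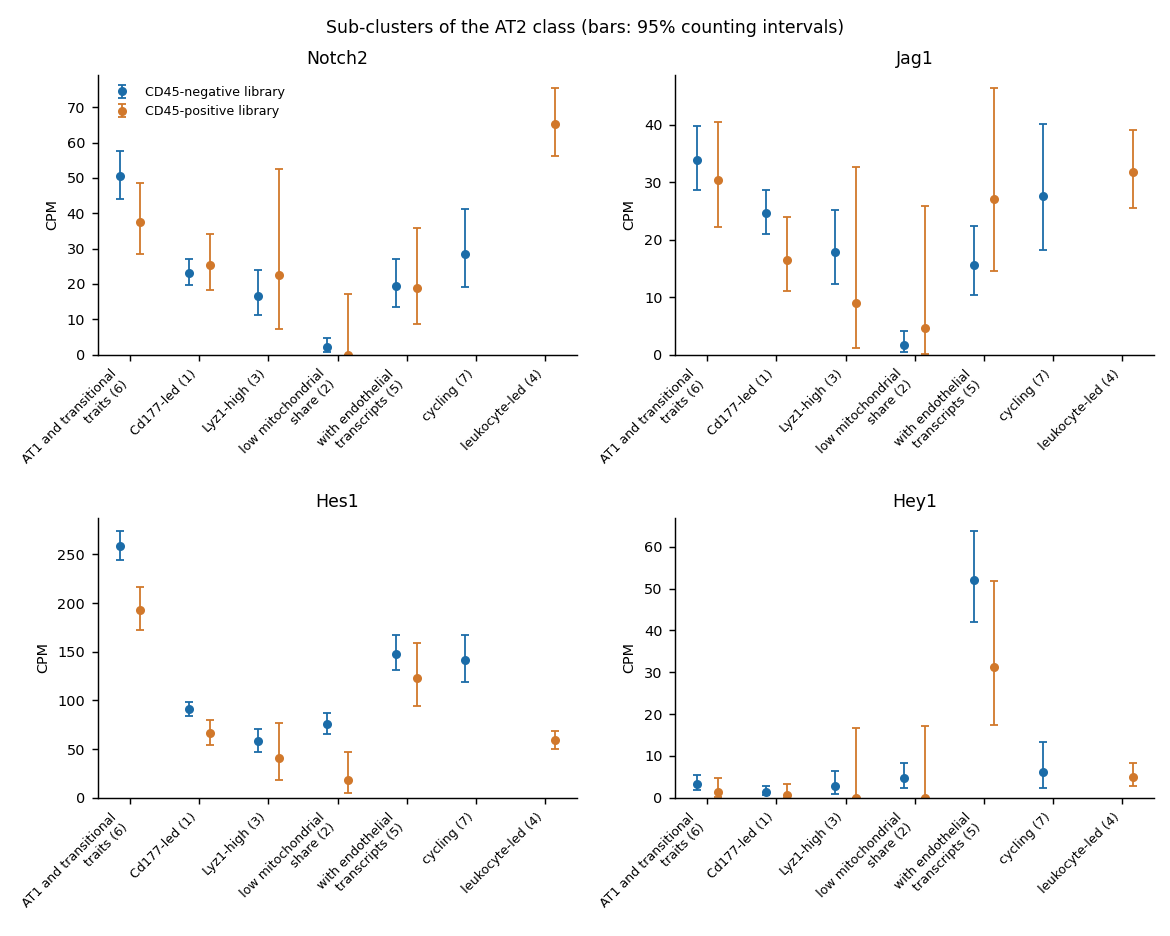
CPM (y axis, linear, a scale per panel) of Notch2, Jag1, Hes1 and Hey1 in 7 sub-clusters of the AT2 class (x axis) for the CD45-negative (blue) and CD45-positive library (orange); bars are 95% exact Poisson intervals, and sub-clusters with fewer than 20 cells in a library have no point. Of those plotted, Hes1 is highest in sub-cluster 6 of each library, Notch2 in sub-cluster 6 of the CD45-negative and in the leukocyte-led sub-cluster 4 (65.3 CPM) of the CD45-positive library, and Hey1 in sub-cluster 5, whose barcodes hold endothelial transcripts.

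Among Ciliated barcodes of the CD45-negative library, 54 cells with 5 of 6 ciliated markers, and haemoglobin genes among their leading genes, had 98.4 CPM of Jag1 (72.8-130), 42.2 CPM of Hey1 (26.1-64.4), 50.2 CPM of Notch1 (32.5-74.1) and 283 CPM of Hes1 (238-334). The 27 club-like cells, secretory cells of the airway with 5 of 6 club markers, had 35.4 CPM of Jag1 (17.7-63.3), 3.21 CPM of Hey1 (0.0814-17.9), 19.3 CPM of Notch1 (7.08-42) and 241 CPM of Hes1 (190-302). The intervals of Jag1 and Hey1 did not overlap between these groups. The Hey1 value of the club-like cells rests on 1 UMI. In the CD45-positive library Jag1 was at 137 CPM (76.6-226) in the 23 cells of the ciliated sub-cluster, from 15 UMI. It was at 85.5 CPM in the 50 leukocyte-led cells, from 26 UMI, and 85 CPM in the 22 with AT2 markers, from 15 UMI. Hes1 was at 420, 276 and 488 CPM in the same order.

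Cdh5 was also counted in every class outside the Endothelial one, at lower levels (10.3 to 126 CPM over both libraries). The members were set against it as UMI per 100 UMI of Cdh5. In the Endothelial class of the CD45-negative library there were 9.05 Notch4, 6.19 Dll4, 11.8 Hey1 and 16.2 Notch1 UMI per 100 Cdh5 UMI. Notch4 had 8.24 in the Ciliated class (0.91 times the Endothelial value, 0.354-1.97) and 12.5 in the Immune class (1.38 times, 0.606-2.78), intervals that include 1. Immune cells of the CD45-positive library had 12.1 for Notch4 (1.18 times, 0.906-1.52), 6.7 for Dll1 (1.21 times, 0.847-1.68) and 5.26 for Dll4 (0.943 times, 0.634-1.36). Their counts of these 3 genes thus stood in about the ratio to Cdh5 that endothelium shows.
Other ratios lay farther from it. In the CD45-negative library Notch4 was above the Endothelial value in AT2 sub-clusters 2 (2.65 times, 1.28-5.07) and 6 (2.35 times, 1.37-3.86). Dll1 was above it in the class labelled AT1 (4.14 times, 2.86-5.89) and in AT2 cells (1.75 times, 1.41-2.14), and Dll4 in AT2 cells (1.76 times, 1.42-2.17). Ciliated cells had 67.1 Notch1 UMI per 100 Cdh5 UMI (4.14 times, 2.89-5.88) and 40 Hey1 UMI (3.39 times, 2.2-5.13) in the CD45-negative library. Immune cells of the CD45-positive library had 129 for Notch1 (6.93 times, 6.14-7.83), 176 for Notch2 (38.3 times, 33-44.7) 25 for Jag1 (6.85 times, 5.49-8.54), 64 for Hes1 (3.09 times, 2.68-3.55) and 15.2 for Hey1 (1.47 times, 1.16-1.86). Their Jag2, at 2.07 (1.55 times, 0.791-2.8), had an interval that includes 1. In AT2 sub-cluster 5 of the CD45-negative library the interval included 1 for Notch4 (0.954 times the Endothelial value, 0.715-1.25), Dll1 (1.16 times, 0.853-1.55), Hey1 (1.15 times, 0.908-1.44) and Jag2 (0.929 times, 0.391-1.89). It lay above 1 for Dll4 (1.53 times, 1.16-2), Notch1 (1.26 times, 1.04-1.52), Hes1 (1.47 times, 1.26-1.7), Notch2 (3.26 times, 2.18-4.75) and Jag1 (1.56 times, 1.01-2.33).

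Notch1 and Notch2 differed between some leukocyte sub-clusters of the CD45-positive library beyond their counting intervals. Treg-like cells (219 cells, regulatory T cells by 5 of 5 markers) had 58.5 CPM of Notch1 (42.4-78.8), against 21.8 CPM (16.3-28.6) in the 699 cells of B-like sub-cluster 20 (ratio 2.69, 1.75-4.1) and 40.3 CPM (31.4-50.9) in gamma-delta-like T cells, from which they were not separated (1.45, 0.97-2.16). The 280 cells of B-like sub-cluster 19 had 8.72 CPM of Notch1 (3.76-17.2), 0.4 times (0.164-0.848) the other B-like sub-cluster. CD8-like T cells had 39.9 CPM and neutrophil-like cells 38.1 CPM.
Notch2 was higher in monocyte-like and neutrophil-like than in gamma-delta-like T cells, and in C1q macrophage-like than in plasma-like cells. Monocyte-like cells had 66.1 CPM of Notch2 (44.2-94.9) and neutrophil-like cells 54.9 CPM (44.6-67), which is 2.5-fold (1.51-4.06) and 2.08-fold (1.45-3.01) the 26.5 CPM of gamma-delta-like T cells. C1q macrophage-like cells had 47.9 CPM (39.7-57.3), 3.13-fold (2.26-4.39) the 15.3 CPM (11.5-19.9) of plasma-like cells. Alveolar macrophage-like cells had 40.3 CPM of Notch2 (34.4-46.9), near the 40.1 CPM of the whole Immune class. That class includes an unnamed sub-cluster of mixed content with more Notch2 than any of these, given at the end.
Hes1 was low in most leukocytes, at 3.88 CPM (2.22-6.31) in alveolar macrophage-like and 5.45 CPM (1.48-13.9) in Treg-like cells. Plasma-like cells had 28.4 CPM (23.1-34.5), 5.48-fold (2.78-12.3) the 5.18 CPM of gamma-delta-like T cells, and monocyte-like cells 34.2 CPM (19.1-56.4). Rbpj, the DNA-binding partner of the receptors, was at 175 CPM (153-199) in CD8-like T cells and 102 CPM (80.3-128) in Treg-like cells, against 49.5 CPM (40.9-59.2) in B-like sub-cluster 20.

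**Figure D4:**
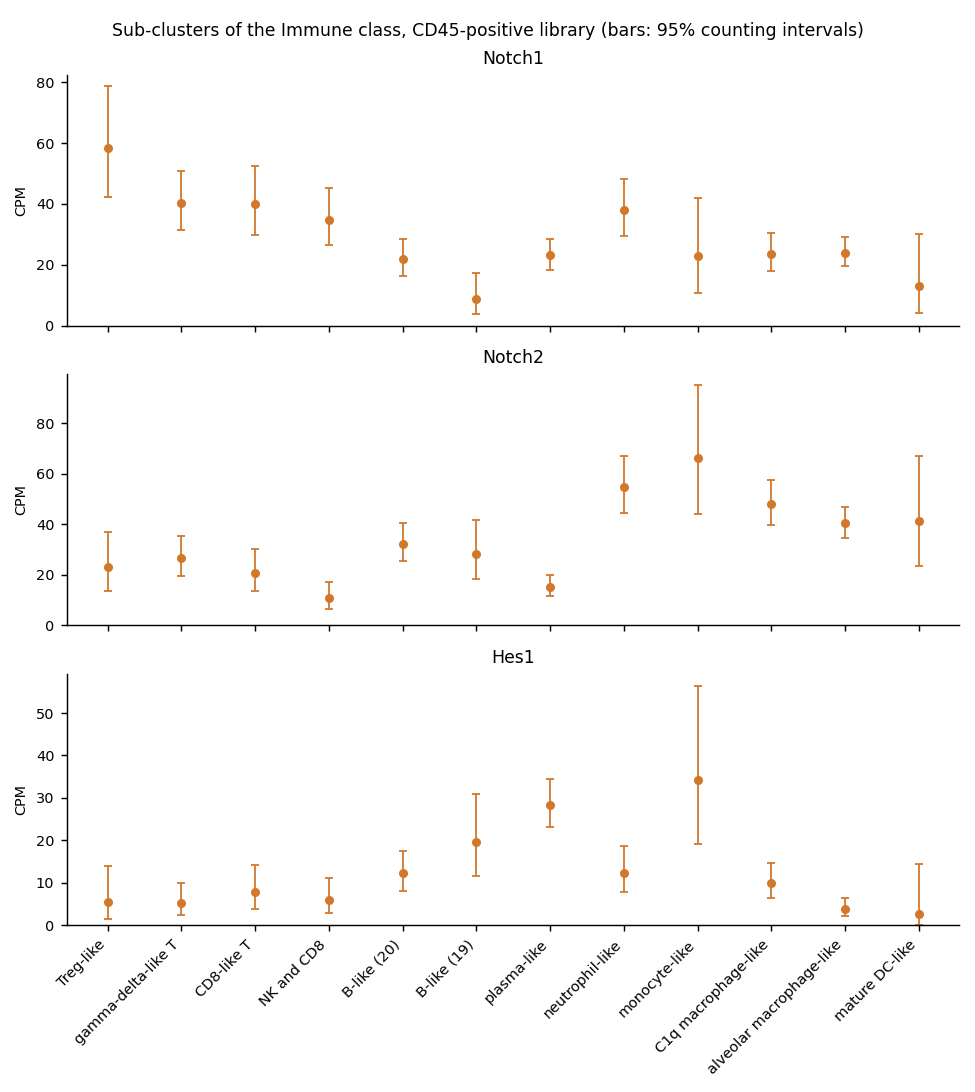
CPM (y axis, linear, a scale per panel) of Notch1, Notch2 and Hes1 in 12 sub-clusters of the Immune class (x axis), CD45-positive library; bars are 95% exact Poisson intervals. Of those plotted, Notch1 is highest in Treg-like cells and lowest in B-like sub-cluster 19. Among the same 12, Notch2 is highest in monocyte-like and neutrophil-like cells, and Hes1 in monocyte-like and plasma-like cells. Sub-clusters left out of the plot include some with more Notch2 or Hes1, given at the end.

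Between the libraries as wholes, 4 of 9 members reached 2-fold, each of them higher in the CD45-negative one, while 25.4% of all genes were 2-fold or more apart in either direction. Hes1 had 181 against 63.4 CPM (ratio 2.85, 2.74-2.98), Dll1 23 against 10 CPM (2.3, 2.05-2.57), Dll4 20.9 against 9.63 CPM (2.17, 1.94-2.44) and Hey1 38.2 against 18.4 CPM (2.07, 1.91-2.25). Notch2 was lower, at 30.7 against 39.8 CPM (0.77, 0.717-0.828). With median-of-ratios scaling, which took up a shift of 0.24 in the median log2 ratio of all genes, only Hes1 of the 9 members stayed past 2-fold, and the share of calls that were higher was 50.1%, against 64.6% by total UMI. The libraries differ in their mix of classes, and the values within the Endothelial class follow.
Within the Endothelial class 1 of 9 members was 2-fold apart, against 5.66% of all genes: Notch2, at 17.4 against 35.3 CPM (0.494, 0.408-0.596). The share of all calls that were higher was 30.8%, and 9.93% with median-of-ratios scaling (a shift of 0.25). In the 4 leukocyte-led sub-clusters of the class in the CD45-positive library Notch2 was at 91.6 CPM (502 cells), 17.1 CPM (519 cells), 42.6 CPM (161 cells, led by B cell genes) and 23.3 CPM (80 cells, led by plasma cell genes). When the sub-clusters led by leukocyte, platelet, pericyte or fibroblast genes were set aside, a choice made after seeing the data, 7 remained, and there Notch2 was at 8.01 against 12.2 CPM (0.657, 0.415-1.06). None of the 7 members that reached 200 UMI was then 2-fold apart, against 1.06% of all genes, and without the barcodes that carry a leukocyte UMI the count was 0 as well, against 1.9% of all genes. Notch2 was under 200 UMI in both cases and these shares of all genes are small, so nothing is read from either count. The retained cells are not the same mix in each library: sub-cluster 5 holds 455 CD45-negative and 45 CD45-positive cells, and sub-cluster 3 holds 7 and 308.
Over the retained sub-clusters together the targets and Dll4 (1.33, 1.11-1.61) were above even, and Notch1 and Notch4 were not separated from it. Without leukocyte UMI barcodes the class had a library ratio of 1.35 (1.14-1.6) for Hes1, 1.14 (0.904-1.45) for Hey1 and 1.26 (0.902-1.82) for Dll4. In the retained sub-clusters Hes1 had 283 CPM in the CD45-negative against 186 CPM in the CD45-positive library (1.53, 1.38-1.69), and Hey1 had 141 against 101 CPM (1.4, 1.22-1.62). Notch1 was at 182 against 179 CPM (1.01, 0.91-1.13) and Notch4 at 101 against 106 CPM (0.95, 0.824-1.1). Within Car4 capillary-like cells the ratio of Hes1 was 1.82 (305 against 167 CPM, 1.51-2.22) and within venous-like cells 1.57 (1.07-2.37), whereas it was 1.01 (0.684-1.49) in cycling cells. Over other whole classes it was 1.78 (1.52-2.09) in the class labelled AT1, 1.8 (1.23-2.72) in Fibroblast, 2.4 (1.66-3.38) in Immune, 1.48 (1.36-1.61) in AT2 and 0.848 (0.434-1.78) in Erythrocyte cells. It was 1.37 (1.12-1.7) in AT2 sub-cluster 1 and 1.34 (1.18-1.53) in sub-cluster 6, and 0.972 (0.833-1.14) in the Ciliated class, with 0.675 (0.48-0.963) in its ciliated sub-cluster.
Of the values that could move with it, the median depth of Car4 capillary-like cells was 6589 UMI for CD45-negative and 3881 UMI for CD45-positive cells, the mitochondrial share 3.2% and 4.63%, and the summed level of stress-induced genes 3300 and 2908 CPM. Barcodes with a leukocyte UMI made up 32.4% and 76% of these cells. Their part in the difference was not tested, and library and fraction cannot be told apart.

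**Figure D5:**
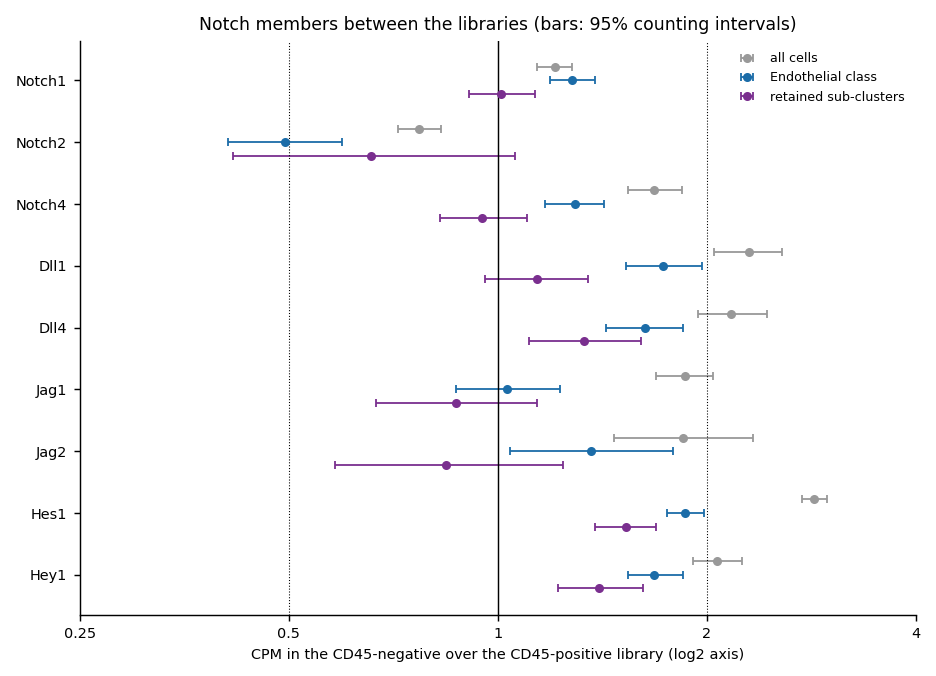
Ratio of CPM in the CD45-negative over the CD45-positive library (x axis, log2 scale) for each member (y axis) over all cells (grey), the Endothelial class (blue) and its 7 retained sub-clusters (purple); bars are 95% exact intervals and dotted lines mark 2-fold. In the retained sub-clusters Notch1 and Notch4 sit at 1, while Hes1, Hey1 and Dll4 stay above it.

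The rest of the pathway was followed with 53 further genes in 8 lists, of which 51 were in the table and 42 reached 200 UMI in the CD45-negative library. Of these 17 were at least 2-fold higher in the Endothelial class than in the other cells, against 24.7% of all genes. All 5 glycosyltransferases, enzymes that put sugars on Notch and tune its choice of ligand, were higher by total UMI, with Mfng at 22.1-fold (110 against 5 CPM) and Lfng at 6.58-fold (73.2 against 11.1 CPM). The median log2 ratio of the 5 was 1.38, against 0.45 for all genes. With that shift taken up, as in median-of-ratios scaling, the median of the 5 is below 2-fold. Among CD45-positive cells only Mfng of the 5 was higher, at 3.49-fold.
Of the genes tied to arteries, all 4 tested were higher: Sox17 (19.6-fold), Gja4 (18.2-fold), Efnb2 (9.27-fold) and Nrp1 (7.02-fold). The list was chosen as arterial genes, and Gja4 and Sox17 are also in the arterial marker list. Nothing about the pathway is read from these 4 calls, which are part of the 17. Of 12 turnover genes 3 were higher, Numb (7.58-fold), an endocytic antagonist of the receptors, Fbxw7 (4.31-fold), which marks cleaved Notch for destruction, and Neurl1b (3.86-fold), and 2 were lower (Neurl1a and Dtx4), a direction taken by 14.2% of all genes. Of 9 protease genes 2 were higher, the gamma-secretase subunit genes Aph1a (3.49-fold) and Aph1b. Of 8 genes of the nuclear complex 1 was higher, the coactivator gene Maml2 (3.41-fold), and Rbpj was near even at 1.21-fold (24.4 against 20.2 CPM).
Among other targets Nrarp, a feedback inhibitor of the pathway, was 9.71-fold higher (90.2 against 9.29 CPM) and reached 319 CPM (246-405) in arterial-like cells, 3.12-fold (2.2-4.42) the venous-like level. Heyl had 118 UMI in the Endothelial class against 6 in the other cells, and Hey2 19 against 4, both under the minimum. Heyl was among the leading genes of the class, as were Myh11 and Postn of the smooth muscle and pericyte lists, so it is not read as endothelial. Hes6 was highest in the Ciliated class, at 163 CPM. Notch3 was 32.8-fold higher in the Endothelial class (41.3 against 1.26 CPM). Within the class it was far higher in pericyte-like cells than in sub-cluster 5, as given above. Dlk1, a ligand-like inhibitor, was at 126 CPM (121-131) in the AT2 class. Its UMI came from few cells: 209 of the 3957 cells of the CD45-negative library (5.28%) had any.

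Likeness of pattern was measured as Pearson's r of log2(CPM + 1) over 14 profiles, the 7 classes in each library, among 11982 genes, and is a description of profiles that share libraries and cells. Nearest to Notch4 stood the endothelial receptor gene Acvrl1 (r = 0.991), then Tspan7 and Ace (both 0.988). Dll4 was most like Dmtn (0.968), Cyp26b1 (0.943) and the arterial connexin gene Gja4 (0.941), and Dll1 most like Acer2 (0.960), Pkn3 and Kank3 (both 0.951). Notch1 was most like Atp2a3 (0.970) and Trib2 (0.954), and Notch2 most like Sema4b (0.949), Zbtb7b (0.943) and Itfg2 (0.940).
Jag1 was most like Usp43 (0.952), Hes1 (0.929) and Map7 (0.920), and Hes1 most like Cyb561 and Sec14l1 (both 0.939) and Jag1. Hey1 was most like 4933408B17Rik (0.959), Gm30382 (0.953) and Hoga1 (0.949), and Jag2 most like Tepp (0.907), Tmem44 (0.893) and Fgfr3 (0.889). Between members, Dll1 with Notch4 (0.893), Dll1 with Dll4 (0.890) and Hey1 with Notch1 (0.896) were close, whereas Dll4 with Jag1 (0.054) and Dll4 with Hes1 (0.282) were not.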

How the data were processed

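RNA of 2 droplet libraries was counted as UMI. The authors deposited raw counts per gene and cell in a single table, with each cell's library and class in another. Per the series design text, reads of 98 bases were aligned to mm10 and collapsed with Cell Ranger 1.1.0, with 6000 cells loaded per channel. The CD45-positive library holds more cells than that, and no label read here says if channels were joined. All 15389 cells were kept, with at least 4646 (CD45-negative) and 2204 UMI (CD45-positive) per cell, and no doublet caller was run.

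Members, lists, comparisons and thresholds were chosen with earlier results of these data known. CPM came from summed counts. Shares of cells were also thinned to 1000 UMI per cell. Profiles used log2(CPM + 1) of the deposited counts. The Endothelial, AT2, Ciliated and Immune classes were sub-clustered over both libraries by the Leiden method at resolution 0.5 (1.0 for Immune) in scanpy 1.11.5 with igraph 0.11.9, and clusters were named after their values were seen, from marker lists. Values are given for sub-clusters with at least 20 cells in a library. All members were named in every class with at least 50 cells. Of each other list up to 4 genes with at least 50 UMI and the largest ratio were named, with Notch3, Rbpj, Hey2, Heyl, Nrarp and Lfng always, and 3 genes per member for likeness, of which 1 is not reported here. Ratios were tested on simulated data. Intervals came from scipy 1.17.1, tables from pandas 2.3.3 and numpy 2.4.6 under Python 3.11.15, and figures from matplotlib 3.10.9. Positions are those of the GRCm38 annotation, and promoter windows those of RefSeq. Alternatives were other scaling, minimum, fold, depth and resolution, barcodes without leukocyte UMI, and, chosen after seeing the data, the 7 retained Endothelial sub-clusters (those led by leukocyte, platelet, pericyte or fibroblast genes set aside) and other cells without the Endothelial class. No column of per-sample values was left unused.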

Additional observations from a re-analysis of the deposited data

Results flagged for a closer look

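Jag1 and Hes1 stood on opposite sides of the other cells in the AT2 class of the libraries. The ratio of Jag1 in AT2 cells over the other cells was 0.635 for CD45-negative and 1.81 for CD45-positive cells, and that of Hes1 was 0.607 and 1.55. They were picked out because the direction differed between the groups. The difference was not tested, since each group is 1 library. The AT2 levels themselves were 22.3 and 25.3 CPM for Jag1 and 134 and 90.6 CPM for Hes1, while the other cells had 35 and 14 CPM of Jag1 and 220 and 58.4 CPM of Hes1. The other cells were mostly Endothelial among CD45-negative and Immune among CD45-positive cells.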

How the results depend on the processing

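No paired analysis was possible because each group is 1 library. In the CD45-negative library the count of members higher in the Endothelial class lay between 5 and 7 under 7 alternatives. The share of all genes called then lay between 14.1% and 43.2%. For the class labelled AT1 the count was 2 under all 7, against 7.76% to 16% of all genes. The Ciliated count of 1 became 2 with median-of-ratios scaling (Jag1, Hes1), against 14% of all genes, and 2 at 1.5-fold (Jag1, Hes1), against 15.1%. It was 2 at a minimum of 50 UMI or none (Jag1, Jag2), against 12.6% and 16.1% of all genes. Without the Endothelial class among the other cells it was 4, against 10.3%. The Endothelial count of 7 in the CD45-positive library became 2 without barcodes that carry a leukocyte UMI, against 23.2% of all genes. Only 3 members then reached the minimum. Between the libraries 4 became 1 with median-of-ratios scaling, against 22.5% of all genes, and 7 at 1.5-fold, against 43.9%. Within the Endothelial class 1 became 5 at 1.5-fold, against 20.6% of all genes. It became 0 without leukocyte UMI barcodes (1.9% of all genes) and 0 in the 7 retained sub-clusters (1.06%), where depth limits Notch2 and Jag2. Of the other pathway genes 17 became 29 at 1.5-fold, a cut-off that 43.2% of all genes passed. The causes of the other moves were not tested. Single levels reversed in none of the alternatives: they moved beyond their intervals for 0 of 18 with cells of at least 3000 UMI, 4 of 18 less the lowest class, 5 of 18 as a mean over cells, 9 of 18 without leukocyte UMI barcodes, 8 of 12 in the 7 retained sub-clusters and 6 of 27 at the other clustering resolution. All 18 shares moved with thinning, as its construction makes them.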

Other observations

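In the CD45-positive library some sub-clusters of mixed content held more Notch2 than the highest deposited class, Fibroblast at 58.5 CPM. An unnamed Immune sub-cluster of 505 cells led by haemoglobin and surfactant genes had 173 CPM of Notch2 (153-196) and a Notch2 UMI in 40.8% of cells, against 47.9 CPM in C1q macrophage-like and 40.3 CPM in alveolar macrophage-like cells. Its median depth was 2714 UMI per cell, and Notch1 was at 37 CPM and Dll4 at 4.63 CPM. The leukocyte-led sub-cluster 2 of the Endothelial class (502 cells) had 91.6 CPM of Notch2, and the leukocyte-led sub-cluster 4 of the AT2 class (601 cells) 65.3 CPM (56.2-75.5), against 25.4 CPM in AT2 sub-cluster 1. Other mixed sub-clusters were lower, with 17.1 CPM in Endothelial sub-cluster 12, 24.4 CPM (10.5-48) in AT2 sub-cluster 9 and 55.9 CPM (32.6-89.5) in Ciliated sub-cluster 4. A sub-cluster of 31 cells led by Cd5l and Alox15, with 4 of 6 C1q macrophage markers, had 65.9 CPM of Hes1 (32.9-118), 6.6-fold (2.93-13.9) the level of C1q macrophage-like cells.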
